A study of Mus musculus with 2 samples.

Results

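Polycomb repressive complex 2 (PRC2) subunit genes were followed with and without Adriamycin in R1E, a line of mouse embryonic stem cells labelled wild type. The 10 genes, taken by symbol from the deposited count tables of 55414 genes, were Ezh1, Ezh2, Suz12, Eed, Jarid2, Aebp2, Mtf2, Phf1, Phf19 and Epop, and each matched exactly 1 gene identifier. RNA was sequenced from 1 library of untreated cells, labelled 0 h, and from 1 library of cells given 0.5 µM Adriamycin for 8 h, both grown with fetal serum and LIF, the cytokine that keeps mouse stem cells undifferentiated. Adriamycin is doxorubicin, which traps topoisomerase II on DNA and leaves breaks. There was no replicate and no untreated library at 8 h, so the drug cannot be told apart from time in culture or from differences between the cultures, and no test between conditions was possible. In bulk RNA, fewer cells with a transcript and less of it per cell cannot be told apart either.

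PRC2 places methyl groups on lysine 27 of histone H3, a mark of silenced developmental genes. Its core holds a catalytic subunit, EZH2 or the less active EZH1, with the scaffold SUZ12 and with EED, which reads the mark and stimulates the enzyme. Accessory subunits bind SUZ12 and define 2 forms. PRC2.1 holds a Polycomb-like protein (PHF1, MTF2 or PHF19), together with EPOP or a PALI protein, and PRC2.2 holds JARID2 and AEBP2. In mouse embryonic stem cells PRC2 covers the promoters of lineage genes, and the accessory subunits help to bring it to unmethylated CpG-rich DNA.

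The libraries held 41820999 reads (untreated) and 38561292 reads (Adriamycin). Levels are given as CPM, reads scaled to library size after correcting library sizes with TMM factors, or as TPM, which also divides by exon length and is used where genes are compared. The log2 ratio is Adriamycin over untreated, from CPM. A gene was measured if its mean was at least 1 CPM, which held for 14871 genes and for all 10 subunits, and it was called lower or higher at a ratio of at least 2-fold. Intervals are 95% counting intervals. They cover counting error only and are too narrow, since mates of a pair appear to have been counted separately. The stem cell markers Pou5f1, Sox2 and Nanog had 34285, 17762 and 23059 untreated reads and 24502, 13563 and 7436 reads with the drug. All 10 pluripotency markers checked had log2 ratios below 0, as had 51.6% of all measured genes and 70.6% of those of at least 100 CPM. All 10 had a mean at that level. Their median log2 ratio was -0.82 and 5 were called lower, where 8.89% of genes at that level were. The summed level of the markers was 6952 CPM without and 4014 CPM with the drug. Of 12 fibroblast markers, Col3a1, Dcn, Lum and Postn were at 0 in both libraries, 4 of the 8 measured were called higher (17.0% of all measured genes were, and 19.9% of those of 5 to 20 CPM), and the summed level was 64.1 and 151.7 CPM. Endoderm markers (8 genes) summed to 130.0 and 102.8 CPM, and trophoblast markers (8 genes) to 92.1 and 107.7 CPM. Their part in the values below was not tested.

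Promoter sequence was available from RefSeq (build GRCm38.p6) for 9 of the 10 genes, in 13 windows from 250 bases before to 50 bases after an annotated start. The 4 shown here include 3 from subunit genes that were lower in the Adriamycin library, picked for a match to E2F letters. The last is from Phf1, the single gene that was higher. E2F factors are bound by retinoblastoma proteins and drive S phase genes, and Ezh2 and Eed are textbook E2F targets. Capitals mark matches to the E2F letters TTTCCCGC or TTTGGCGC and to the CCAAT box, on either strand. Each runs 5′ to 3′ on the gene's strand and stops 30 bases after the start. The windows are chr6:47595001-47595280 (minus strand), chr11:79992856-79993135 (plus strand), chr2:34913947-34914226 (minus strand) and chr17:26932877-26933156 (plus strand).
Ezh2: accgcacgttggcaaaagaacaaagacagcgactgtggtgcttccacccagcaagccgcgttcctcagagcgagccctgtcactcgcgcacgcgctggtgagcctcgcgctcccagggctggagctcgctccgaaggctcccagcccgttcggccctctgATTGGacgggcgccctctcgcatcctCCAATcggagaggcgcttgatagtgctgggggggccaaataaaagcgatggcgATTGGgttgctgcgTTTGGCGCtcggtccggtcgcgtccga
Suz12: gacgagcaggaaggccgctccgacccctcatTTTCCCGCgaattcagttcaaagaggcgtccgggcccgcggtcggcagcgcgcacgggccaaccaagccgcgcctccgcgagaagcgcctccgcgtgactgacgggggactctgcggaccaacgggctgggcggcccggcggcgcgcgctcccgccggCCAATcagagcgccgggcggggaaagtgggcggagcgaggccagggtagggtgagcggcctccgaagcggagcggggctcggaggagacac
Phf19: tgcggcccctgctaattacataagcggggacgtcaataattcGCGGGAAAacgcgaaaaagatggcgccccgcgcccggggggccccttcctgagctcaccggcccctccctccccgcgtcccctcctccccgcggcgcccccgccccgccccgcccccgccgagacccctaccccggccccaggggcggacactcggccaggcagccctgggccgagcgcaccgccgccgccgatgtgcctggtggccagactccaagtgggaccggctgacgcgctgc
Phf1: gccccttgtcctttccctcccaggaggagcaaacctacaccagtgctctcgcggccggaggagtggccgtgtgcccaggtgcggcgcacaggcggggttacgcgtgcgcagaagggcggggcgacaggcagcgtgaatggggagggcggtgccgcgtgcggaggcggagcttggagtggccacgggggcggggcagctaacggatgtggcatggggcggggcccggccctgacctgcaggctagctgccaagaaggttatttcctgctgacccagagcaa

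The E2F letters were found in 3 of the 13 windows, against 1.56% of all 32851 windows of the same length. That share was not matched for base composition. The printed bases were 64.6% (Ezh2), 73.6% (Suz12) and 74.6% (Phf19) G or C. The match was to TTTGGCGC in Ezh2, beginning at base 4 after the start. It was to TTTCCCGC at base -219 in Suz12 and, on the opposite strand, at base -208 in Phf19. No match was found in the windows of Jarid2 and Mtf2, which were also lower, or in that of Eed. Epop, also lower, had no window. The CCAAT box was found in 7 of the 13 windows, against 37.4% of all windows. These windows belonged to 6 genes: Ezh2, Suz12, Mtf2 and Jarid2, which were lower, and Eed and Aebp2, which were not. The window of Ezh2 and a window of Mtf2 each held 3 matches. The letters TTTGAA of the CHR element, a cell cycle motif, stood in 4 windows, of Suz12, Eed, Aebp2 and Mtf2, against 17.9% of all. The ETS letters CCGGAAGT were in none of the 13, against 3.89%. The repeat unit of the p53 response element was found in 1 window, that of Phf1 from base 25 to base 34 after the start, against 8.36% of all. All motifs were searched on both strands, and none of these matches overlapped another. A match describes the letters and does not show that a factor bound there.

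Most PRC2 subunit transcripts were lower in the Adriamycin library. The 6 genes Phf19, Jarid2, Epop, Ezh2, Mtf2 and Suz12 were at least 2-fold lower, where 6.95% of all measured genes were, and Phf1 was at least 2-fold higher, where 17.0% of all were. Ezh1, Eed and Aebp2 were between these limits, all with log2 ratios below 0. Ratios below 0 were found for 51.6% of all measured genes and for 70.6% of those of at least 100 CPM. The median log2 ratio of the 10 genes was -1.07, beside -0.03 over all measured genes. The background differed with level, and among the 2521 genes whose mean reached 100 CPM the median was -0.31 and 8.89% were at least 2-fold lower. Of the 7 subunits in that range, 5 were lower.

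**Figure D1:**
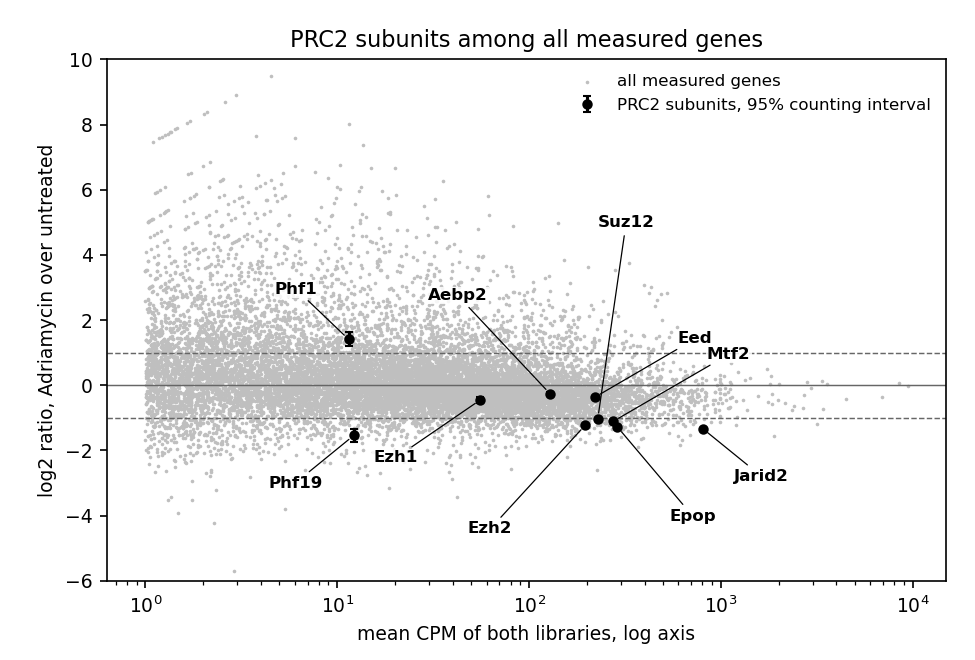
Log2 ratio of Adriamycin over untreated (vertical axis) against mean CPM of both libraries (horizontal, log axis) for the 14871 measured genes (grey) and the 10 PRC2 subunits (black, bars for the 95% counting interval); dashed lines mark 2-fold. Jarid2, Epop, Ezh2, Mtf2 and Suz12 lie at or under the lower line at high expression, Phf19 at low expression, and Phf1 is the single subunit above the upper line.

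Of the catalytic subunits, Ezh2 was lower while its relative Ezh1 stayed within 2-fold. Ezh2 (ENSMUSG00000029687, chromosome 6, 47507073 to 47572275, GRCm39) had 10925 untreated reads and 4769 with the drug, 274.7 and 117.6 CPM. It was 2.34-fold lower, a log2 ratio of -1.22 (-1.27 to -1.17), and 3.94% of measured genes had a smaller ratio. Ezh1 (ENSMUSG00000006920, chromosome 11, 101081941 to 101117289) had 2559 and 1915 reads, 64.3 and 47.2 CPM, a log2 ratio of -0.45 (-0.53 to -0.36). The intervals of both ratios lay apart. EZH2 is the main enzyme of dividing cells, and EZH1 is better known from resting and differentiated ones.

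The balance of the 2 enzymes can be read within each library, free of any scaling between them. Per exon length, Ezh2 had 4.76 times the reads of Ezh1 without the drug and 2.77 times with it. That balance was thus 0.583 times its untreated value (0.545 to 0.625, and 0.530 to 0.642 with counts divided by 2). Ezh2 remained the more abundant of the pair, at 82.6% of their summed TPM without the drug and 73.5% with it.

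The other core subunits also differed from each other. Suz12 (ENSMUSG00000017548, chromosome 11, 79883932 to 79924949) had 12192 and 6049 reads, 306.5 and 149.2 CPM. Its log2 ratio was -1.04 (-1.08 to -0.99), 2.05-fold lower, so its interval reached across the 2-fold limit. Eed (ENSMUSG00000030619, chromosome 7, 89603862 to 89630191) had 9849 and 7763 reads, 247.6 and 191.5 CPM, a log2 ratio of -0.37 (-0.41 to -0.33). Per exon length, in TPM, Suz12 and Eed were close in the untreated library (221 and 230.1) and apart in the Adriamycin library (116 and 192). The Suz12 to Eed ratio went from 0.958 to 0.603, and the Ezh2 to Eed ratio from 0.636 to 0.352. The ratio of Suz12 to Eed was thus 0.629 times its untreated value (0.603 to 0.657). Ezh2 to Suz12 went from 0.664 to 0.584, 0.880 times its untreated value (0.840 to 0.921), a smaller shift. Exons of Eed share 261 bases with those of E230029C05Rik, an antisense gene with 16 and 49 reads.

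Among the PRC2.1 accessory genes, 3 were lower and Phf1 was higher. Epop (ENSMUSG00000043439, chromosome 11, 97518215 to 97520528), whose product links PRC2 to Elongin BC, had 16268 and 6828 reads, 409.0 and 168.4 CPM. It was 2.43-fold lower (log2 ratio -1.28, -1.32 to -1.24). Mtf2 (ENSMUSG00000029267, chromosome 5, 108213540 to 108256870), the main Polycomb-like gene of these cells by level, had 14901 and 7045 reads, 374.7 and 173.7 CPM. It was 2.16-fold lower (log2 ratio -1.11, -1.15 to -1.07). Exons of Mtf2 share 395 of 5698 bases with the antisense gene Tmed5 (935 and 1051 reads).

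The remaining Polycomb-like genes, both expressed at a low level, went in opposite directions. Phf19 (ENSMUSG00000026873, chromosome 2, 34783769 to 34804038) had 722 and 253 reads, 18.2 and 6.24 CPM. It was 2.91-fold lower (log2 ratio -1.54, -1.75 to -1.33), the lowest ratio of the 10. Phf1 (ENSMUSG00000024193, chromosome 17, 27152026 to 27156882) had 250 and 676 reads, 6.29 and 16.7 CPM. It was 2.65-fold higher (log2 ratio 1.41, 1.20 to 1.62), and 11.7% of measured genes had a larger ratio. Phf19 had more reads than Phf1 in the untreated library and fewer in the Adriamycin library. Per exon length, Phf19 to Phf1 was 2.00 in the first and 0.259 in the second, and Mtf2 to Phf1 was 36.5 and 6.38. Many exon bases of Phf1 overlap another gene. Over bases shared with no other gene, Phf19 to Phf1 was 1.21 (0.987 to 1.5 on halved counts) and 0.157 (0.127 to 0.193), so the pair was not separated in the untreated library and Phf1 was the higher in the Adriamycin library. Mtf2 to Phf1 was 23.8 and 4.16 over those bases.

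The count of Phf1 is less secure than the others. Of its 3486 exon bases, 1370 also belong to Cuta on the opposite strand, and AC144621.3, also antisense and at 0 reads in both libraries, shares 156 of its bases. Reads on shared bases could not be assigned, as the counting command sets neither a strand nor a multiple-overlap option. Cuta itself had 1537 and 922 reads, a log2 ratio of -0.76, in the other direction from Phf1. Kifc5b, which ends 468 bases before Phf1 on the same strand, had 1803 and 4034 reads, a log2 ratio of 1.13. Whether transcripts running on from Kifc5b add to the count of Phf1 was not tested. Kifc5b was named after its value was seen.

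Of the PRC2.2 accessory genes, Jarid2 was lower and Aebp2 was within 2-fold. Jarid2 (ENSMUSG00000038518, chromosome 13, 44882950 to 45075119) encodes a catalytically inactive relative of the Jumonji demethylases that helps PRC2 bind and be stimulated. It had 45705 and 18535 reads, 1149 and 457.1 CPM, the highest CPM of the 10 in both libraries, and was 2.51-fold lower (log2 ratio -1.33, -1.35 to -1.31). Aebp2 (ENSMUSG00000030232, chromosome 6, 140568389 to 140624198), a zinc finger protein, had 5598 and 4743 reads, 140.8 and 117.0 CPM, a log2 ratio of -0.27 (-0.32 to -0.21). Per exon length, Jarid2 to Aebp2 was 8.28 in the untreated and 3.96 in the Adriamycin library. Jarid2 and Epop, from different forms of the complex, had log2 ratios whose intervals overlapped, and their own ratio was 0.669 and 0.647.

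In the order of log2 ratios, the counting interval of Phf19 overlapped that of Jarid2, Jarid2 that of Epop, and Epop that of Ezh2. Mtf2 and Suz12 overlapped too, but Ezh2 and Mtf2 did not. A gap with no overlap separated Suz12 from Ezh1, also with counts divided by 2. Ezh1 and Eed overlapped, and Aebp2 stood just above them. With counts divided by 2, the interval of Ezh2 also reached that of Mtf2, and that of Eed reached Aebp2. So the 9 genes with negative ratios fell, on halved counts, into a group of 6, from -1.54 to -1.04, and a group of 3, from -0.45 to -0.27.

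The order of levels in TPM differed between the libraries. In the untreated one it ran Epop (629), Jarid2 (421), Mtf2 (234), Eed (230), Suz12 (221), Ezh2 (146), Aebp2 (50.8), Ezh1 (30.8), Phf19 (12.8) and Phf1 (6.41). Mtf2 and Eed did not differ beyond counting error, nor did Eed and Suz12 with counts divided by 2. In the Adriamycin library it ran Epop (279), Eed (192), Jarid2 (181), Mtf2 (117), Suz12 (116), Ezh2 (67.6), Aebp2 (45.6), Ezh1 (24.4), Phf1 (18.3) and Phf19 (4.75). There Mtf2 and Suz12 did not differ beyond counting error, and Eed had moved past Mtf2 and Jarid2. Over exon bases that Phf1 shares with no gene, its TPM was 10.6 and 30.2, which would put it above Ezh1 in the Adriamycin library. Epop and Jarid2 ranked above 98.8% and 97.8% of measured genes in TPM without the drug, and above 96.4% and 93.2% with it.

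**Figure D2:**
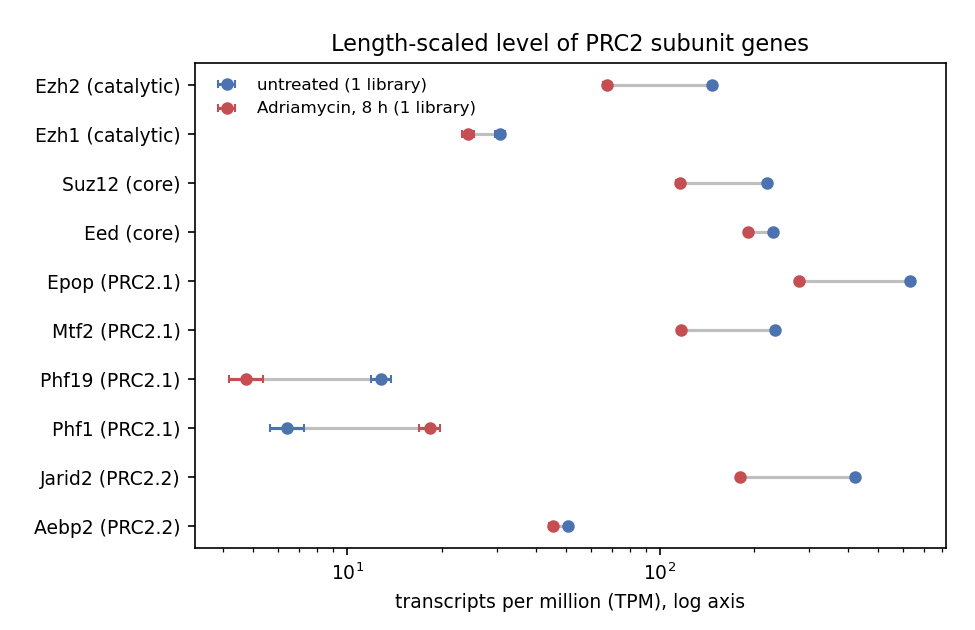
TPM of each subunit gene (horizontal, log axis) in the untreated (blue) and Adriamycin (red) library, 1 library each, with 95% counting intervals that are mostly smaller than the points; labels give the role. All genes but Phf1 have the red point to the left, from Epop (629 to 279) to Phf19 (12.8 to 4.75), and Phf1 has it on the right (6.41 to 18.3).

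Summed over the 10 genes, TPM was 1981 in the untreated and 1045 in the Adriamycin library, 47.3% less. TPM carries no TMM correction, and Epop and Jarid2 made up 31.7% and 21.2% of the untreated sum. The makeup of the accessory subunit RNA was nearly the same in one respect and different in another. The PRC2.1 genes together made up 65.2% of accessory TPM without the drug and 65.0% with it. Counted in reads, their share was 38.5% (38.2 to 38.8, exact binomial) and 38.9% (38.4 to 39.4). Within the forms the shares moved. Epop went from 46.5% to 43.3% of accessory TPM and Jarid2 from 31.1% to 28.0%, while Aebp2 went from 3.76% to 7.06% and Phf1 from 0.474% to 2.84%. The near-equal total depended on which genes were summed. Leaving out 1 gene at a time, the PRC2.1 share in the Adriamycin library minus that in the untreated one was 3.33 points without Epop, 2.2 points without Aebp2, -1.05 points without Phf1 and -4.35 points without Jarid2.

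**Figure D3:**
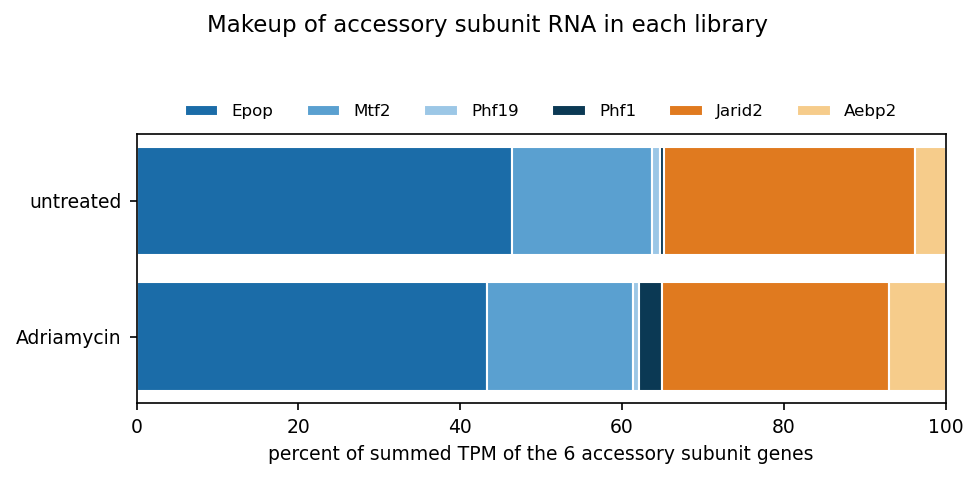
Percent of the summed TPM of the 6 accessory subunit genes (horizontal axis) in each library, 1 bar per library, with PRC2.1 genes in blue and PRC2.2 genes in orange. The border between blue and orange is at 65.2% and 65.0%, while the Aebp2 and Phf1 segments are wider in the Adriamycin library.

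The 6 lower genes shared neither a chromosome nor a size. They lie on chromosomes 2, 5, 6, 11 and 13, and Suz12 and Epop share chromosome 11 with Ezh1, which was not lower. Their spans run from 2.31 kb (Epop) to 192 kb (Jarid2), and over all 1778 measured genes longer than 100 kb the median log2 ratio was 0.05. Measured genes within 500 kb of Ezh2 (11 genes), Suz12 (15), Epop (28) and Phf19 (16) had median log2 ratios of -0.05, -0.04, -0.15 and 0.24. Around Mtf2 (15 genes) the median was -0.40, around Jarid2 only 3 genes were measured (0.20), and around Phf1 (17 genes) it was 0.13. Cul1, a ubiquitin ligase scaffold that ends 3999 bases from Ezh2, had 7504 and 3809 reads, a log2 ratio of -1.01. It was named after its value was seen.

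Other partners of PRC2 stayed within 2-fold, as most measured genes did (6.95% were lower and 17.0% higher). The histone binding proteins RBBP4 and RBBP7 complete the core, and Rbbp4 had 26717 and 19612 reads (log2 ratio -0.47) and Rbbp7 16124 and 9730 (-0.76). The PALI genes Lcor and Lcorl had log2 ratios of -0.08 and -0.86. AU022751, the older symbol of the PRC2 inhibitor gene Ezhip, had 610 and 650 reads (0.06, -0.10 to 0.23).

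Genes that oppose PRC2 on the same lysine were also within 2-fold. Of these 5 genes 4 had ratios below 0, and their median was -0.67, beside -0.31 for all genes of at least 100 CPM. That level was reached by 3 of the 5. Kdm6b was near the limit, and the shift of 0.12 under upper-quartile factors would take it past 2-fold. The demethylase genes Kdm6a, Kdm6b and Uty had log2 ratios of -0.67, -0.90 and -0.82. The acetyltransferase genes Ep300 and Crebbp had -0.56 (11920 and 8242 reads) and 0.08 (4131 and 4461 reads). Methyltransferases of H3 lysine 36, a mark that hinders PRC2, had 0 of 5 genes called in either direction and a median of -0.45. Most measured genes were likewise not called, with 6.95% lower and 17.0% higher.

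In the trithorax and COMPASS list, whose products methylate H3 lysine 4, 3 of 12 genes were lower and 0 higher, with a median of -0.46. Setd1b had 3147 and 1139 reads (-1.49) and Kmt2c 5196 and 2393 (-1.15). PRC1 is the Polycomb complex that ubiquitinates histone H2A. Of its 26 genes 25 were measured, 3 lower and 2 higher, with a median of -0.39. Pcgf2 (5624 and 2565 reads, -1.16) was among the lower ones, and Pcgf3 (5013 and 12744, 1.32) and Phc2 (1893 and 4553, 1.24) were higher. In the PR-DUB list, for the deubiquitinase that removes the PRC1 mark, 2 of 10 were lower and 0 higher, with a median of -0.45. Those 2 were Hcfc1 (39350 and 17751 reads, -1.18) and Asxl3 (85 and 35 reads, -1.30). Among all measured genes 6.95% were lower and 17.0% higher, with a median of -0.03. Among those of at least 100 CPM, a level reached by 6 of the 12 trithorax, 8 of the 25 PRC1 and 5 of the 10 PR-DUB genes, 8.89% were lower and 7.02% higher, with a median of -0.31. Median levels were 99.7, 35.3 and 99.8 CPM in the trithorax, PRC1 and PR-DUB lists. Among all measured genes of 20 to 100 CPM, 4.94% were lower and 10.3% higher, with a median of -0.10. Ratios below 0 were found for 12 of 12 trithorax, 18 of 25 PRC1 and 8 of 10 PR-DUB genes. They were found for 70.6% of genes of at least 100 CPM and 57.2% of those of 20 to 100 CPM. The medians of the 3 lists lay below those of both bands and above the -1.07 of the PRC2 subunits. The 10 pluripotency markers, with a median of -0.82 and 5 genes lower, lay between -0.31 and -1.07.

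Developmental genes that PRC2 is known to cover in stem cells did not share a direction. Of 50 such genes 27 were measured, with 5 higher, 6 lower and a median log2 ratio of 0.03, which was -0.09 with upper-quartile scaling. These genes were at a low level, 15 of the 27 with a mean under 5 CPM. Among all measured genes of 1 to 5 CPM, 31.8% were higher, 9.51% were lower and the median was 0.37, against 17.0% and 6.95% at all levels. Higher ones included Pax5, a B cell factor (36 and 750 reads, 4.33), and Cdkn2b, the CDK inhibitor p15 (73 and 831 reads, 3.47). Lower ones included Neurog3 (99 and 9 reads, -3.42) and Pax6 (151 and 25 reads, -2.60), both neural and endocrine factors. Of the 39 Hox genes, the best known PRC2 targets, 6 were measured, with 2 higher, 0 lower and a median of 0.00. A mean under 5 CPM was found for 5 of these 6, so the share of 31.8% higher is the one to set beside their count of 2. Hoxc13 had 73 and 616 reads (3.04) and Hoxb9 33 and 70 (1.05). A further 5 Hox genes were at 0 reads in both libraries, and the limit that such a 0 sets at 3 reads is 0.0754 CPM untreated and 0.0740 CPM with the drug.

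**Figure D4:**
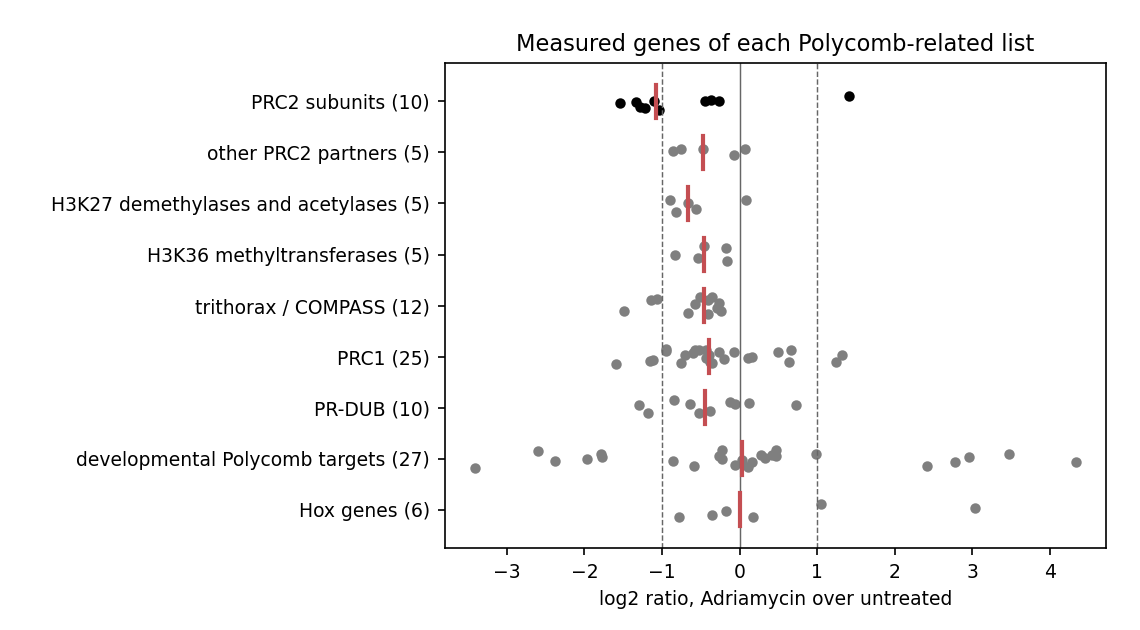
Log2 ratio of Adriamycin over untreated (horizontal axis) for each measured gene of the Polycomb-related lists, with the number measured in parentheses, the median as a red line, and dashed lines at 2-fold. Of the 9 lists drawn the PRC2 subunits have the lowest median, -1.07, and the developmental targets and Hox genes have medians near 0 with members far to both sides or to the right.

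The calls of the subunits near the limit depend on how libraries are scaled and on the fold used. With total counts all log2 ratios were 0.14 higher and 4 subunits were at least 2-fold lower, where 4.89% of genes were, with Suz12 (-0.89) and Mtf2 (-0.96) no longer called. With upper-quartile factors ratios were lower by 0.12 and the count was 6 (9.33% of genes), and with DESeq2 size factors it was 6 (6.87%). At 1.5-fold 6 were lower (18.9% of genes). At 3-fold 0 were lower and 0 higher (1.73% and 9.86% of genes). Asking that the whole interval from counts divided by 2 lie past 2-fold left 5 lower (3.68% of genes), all but Suz12. No subunit changed the sign of its ratio under these 3 scalings.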

How the data were processed

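The authors deposited a table of raw gene counts for each library. Reads from pairs with both ends aligned were counted with featureCounts 2.0.3, per the file headers, over exons of Ensembl release 105, build GRCm39. No strand, multiple-mapping or multiple-overlap option was set. Per the submitters' processing notes, tools were HISAT2 2.0.4, Trim Galore 0.3.4, DESeq2 1.16.1 and featureCounts 1.6.0, on builds mm9 and mm10, so counter and build differ from the headers. Totals were 41820999 and 38561292 reads. A count of 2 was more frequent than 1 in both tables (2067 against 1629 genes, and 2266 against 1719). Symbols came from GENCODE M21 by Ensembl identifier (52081 of 55414 matched). Gene positions are from the tables (GRCm39), and promoter positions from RefSeq on GRCm38.p6.

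Computed here were TMM-scaled CPM (edgeR 4.0.16, R 4.3.3), TPM from the deposited exon lengths, and log2 ratios with a pseudocount of 0.5 read (Python 3.11.15, numpy 2.4.6, pandas 2.3.3). Intervals of ratios are exact conditional binomial (Clopper-Pearson), those of levels exact Poisson, and those of a balance between 2 genes a normal approximation on the log scale (scipy 1.17.1). They were repeated on counts divided by 2, the reads in a pair. Ratios and intervals were tested on counts simulated with Poisson error only. The simulation held no paired mates and no spread between cultures, so it could not show how much too narrow the intervals are. With 1 library per condition there is no test. Total counts, upper-quartile factors and DESeq2 1.42.0 size factors, other filters, pseudocounts and folds were alternatives. The members, gene lists and promoter motifs were chosen with earlier results of these data known. Named genes are the 10 subunits, all genes of the 2 short lists (other PRC2 partners, and enzymes acting on H3 lysine 27), and up to 2 called genes at each end of the longer lists. Genes whose exons overlap a subunit's are also named. Some results are not reported here.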

Additional observations from a re-analysis of the deposited data

How the results depend on the processing

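The median log2 ratio of the 10 PRC2 subunits was -1.07 as reported, -0.93 with total counts, and -1.20 when upper-quartile factors were used, both shifts being those of the scaling itself. With DESeq2 size factors, a pseudocount of 2 reads, no filter on low counts, or a filter of 5 CPM, it moved by less than counting error. Under a 3-fold rule 0 subunits were lower and 0 higher. The share of PRC2.1 genes in accessory TPM differed by -0.19 points between libraries as reported and by 3.33 points without Epop. Further alternatives were chosen after seeing the data: it was 2.2 points without Aebp2, -1.05 without Phf1, -4.35 without Jarid2, -0.67 without Mtf2 and -0.12 without Phf19. In CPM the difference was 0.35 points, and also over exon bases shared with no other gene, likewise chosen after seeing the data. A pseudocount left the balance of Ezh2 to Ezh1 at 0.583. Of the 40 ratios of single subunits under 3 other scalings and another pseudocount, 24 stayed within counting error, and none of the 40 changed sign. No paired analysis was possible because each condition has 1 library. Depth limits Phf1 and Phf19 most, with 250 and 253 reads in their lower library, and without replicates the spread between cultures is unknown.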

Other observations

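Genes of DNA replication that E2F factors are known to control were mostly within 2-fold. Of 16 such genes, 0 were higher and 1 was lower, with a median log2 ratio of -0.31. Their mean level was at least 100 CPM for 12, and all measured genes of that level had the same median of -0.31, with 8.89% lower and 7.02% higher. The list's median and its count of lower genes were thus near those of genes at its level. The lower one was Ccne1, the cyclin E1 gene, with 14653 and 4671 reads (log2 ratio -1.68). Pcna, the sliding clamp of replication, had 10438 and 5927 reads (-0.84), and Mcm2, a helicase subunit, 32874 and 27923 (-0.26). Rrm2, a ribonucleotide reductase gene, had 11180 and 16355 reads (0.52), and E2f1 itself 3684 and 6124 (0.71). Pcna, Mcm2, Rrm2 and E2f1 were named after their values were seen.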
